A study of Mus musculus with 8 samples.

Results

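Heavy-only barcodes are droplet barcodes for which exactly 1 immunoglobulin heavy-chain (IGH) contig and no kappa (IGK) or lambda (IGL) light-chain contig was listed. Applying that rule to every library found 1667 of them among 52999 barcodes, 804 in WT and 863 in KO. The study profiled B-cell receptors of single splenic germinal-centre B cells from mice that carried Dtx1 (WT, genotype Dtx1+/+) or lacked it (KO, genotype Dtx1-/-), 10 days after immunization. Dtx1 encodes Deltex-1, a ubiquitin ligase linked to Notch signalling. Splenocytes binding peanut agglutinin, a lectin that labels germinal-centre cells, were bead-enriched and flow-sorted, and 4 droplet libraries were made per genotype. The immunogen, the sort gates, the ages, the tissue reach of the deletion and the number of mice were not given in the labels. Libraries of 1 genotype held many of the same clones, so the 4 libraries are treated here as 4 loadings of 1 cell pool, and every p-value measures the spread between loadings, not between animals.

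A B cell joins a V, a D and a J segment to make its heavy chain and a V and a J segment to make its light chain, and it needs both for a surface receptor. The join of V, D and J, called the CDR3, differs from clone to clone and so serves as a tag of descent. In the germinal centre, cells of a clone divide, acquire point mutations in the V gene and may switch the constant region from IGHM to an IgG gene. IGHD is co-expressed with IGHM in naive follicular B cells and is turned down in germinal-centre cells. A barcode listed with a heavy chain alone still gives the V gene, J gene, CDR3, mutations and constant gene, but not the partner chain. Paired cells, the 40603 barcodes with exactly 1 heavy and 1 light contig, are the comparison throughout. A heavy contig marks a B-cell transcript, and receptor contigs alone cannot show whether a barcode was a germinal-centre cell.

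The heavy-chain CDR3s below are those of the 5 largest clones among heavy-only barcodes and of the largest clone with no paired cell. They are shown as examples of the heavy chains in the largest groups. A clone here is a group linked by the same V gene, J gene and CDR3 length and similar CDR3s, so 1 clone can hold several CDR3s. Each is the most common CDR3 among the heavy-only barcodes of its clone, 5′ to 3′, from the deposited contigs, and the capitals mark the first and last codons, which encode the cysteine and tryptophan that bound the CDR3.
KO IGHV2-2 IGHJ4: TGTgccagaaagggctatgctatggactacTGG
WT IGHV2-2 IGHJ4: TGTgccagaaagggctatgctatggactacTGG
WT IGHV2-2 IGHJ3: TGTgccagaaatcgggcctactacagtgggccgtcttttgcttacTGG
KO IGHV8-8 IGHJ2: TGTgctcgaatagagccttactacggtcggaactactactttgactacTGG
KO IGHV8-8 IGHJ1: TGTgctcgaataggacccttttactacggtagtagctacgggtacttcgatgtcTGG
WT IGHV1-78 IGHJ4: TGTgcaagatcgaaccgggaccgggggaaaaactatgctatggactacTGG
The CDR3s printed for the KO and the WT IGHV2-2 clone with IGHJ4 were the same 33 bases. The KO one was carried by 3 of 14 heavy-only barcodes and 15 of 101 paired cells of its clone, and the WT one by 3 of 7 and 6 of 74. The IGHJ3 CDR3 was carried by 7 of 7 and 49 of 49, and the IGHV1-78 CDR3 by 3 of 3 heavy-only barcodes. The IGHV8-8 CDR3s were rare in their clones: the one with IGHJ2 was carried by 2 of 9 heavy-only barcodes and 2 of 136 paired cells, and the one with IGHJ1 by 2 of 9 and 1 of 72.

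Heavy-only barcodes made up 2.10% to 4.34% of the barcodes of a library. In WT they were 4.34% (95% Wilson interval 3.88 to 4.86), 3.84% (3.39 to 4.34), 2.10% (1.76 to 2.50) and 2.48% (2.12 to 2.91) in replicates 1 to 4. In KO they were 3.41% (3.02 to 3.86), 3.20% (2.83 to 3.63), 2.35% (2.02 to 2.73) and 3.32% (2.91 to 3.79). The intervals cover counting error only. The 2 highest libraries, WT replicates 1 and 2, and the lowest, WT replicate 3, were all WT, so the genotypes overlapped. The KO mean was 3.07% ± 0.490 and the WT mean 3.19% ± 1.07 (SD, n = 4 each), a difference of -0.121 percentage points (exact permutation test, two-sided, p = 0.857, where 4 against 4 libraries cannot go below 0.0286). Without WT replicate 1 the difference was 0.263, and at 5 or more heavy-chain UMIs it was 0.0785, so its sign was not fixed. The reverse kind of barcode, with a light chain and no heavy chain, was more common in every library, at 8.23% to 13.8%.

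**Figure D1:**
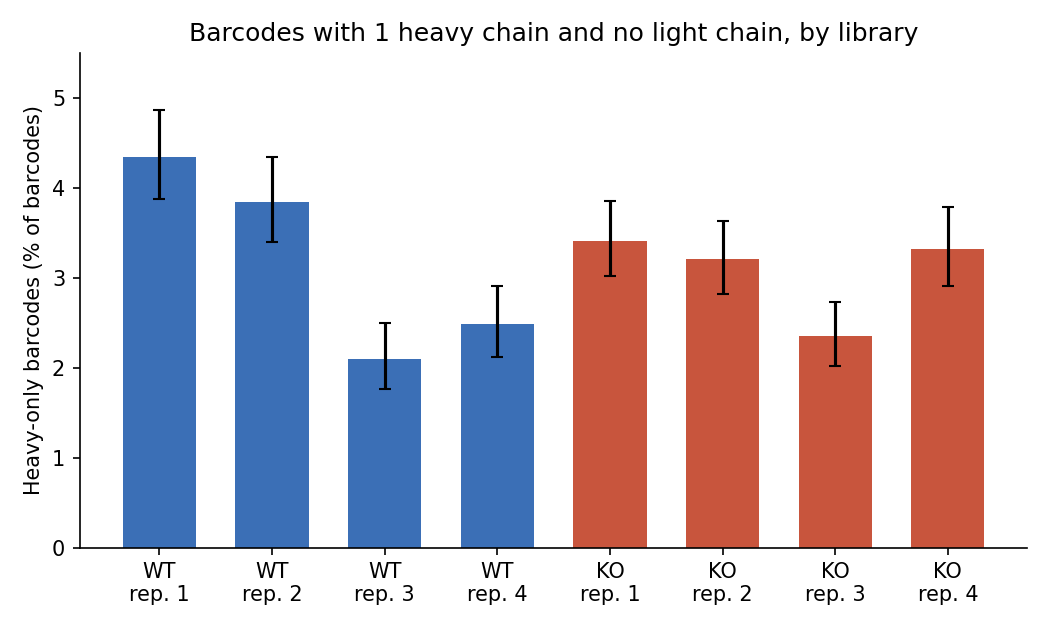
Heavy-only barcodes as a percent of all barcodes of each library (y axis) for the 4 WT and 4 KO libraries (x axis), with 95% Wilson intervals that cover counting error only. The spread within WT, from 2.10% to 4.34%, exceeded the difference between the genotype means.

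The libraries held 5955 to 7334 barcodes, 754954 to 1155339 receptor UMIs and 32395632 to 47934592 reads. All 104649 contigs were marked as cell-associated, high-confidence, full-length and productive. Of 51304 barcode sequences, 1671 occurred in more than 1 library, 51 to 83 for each of the 28 pairs of libraries. Among heavy-only barcodes 128 (7.68%) had a sequence that occurred in another library, against 6.31% of paired cells, and 0 barcode sequences carried the same heavy V gene and CDR3 in 2 libraries.

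Heavy-only barcodes held few heavy-chain molecules. A UMI is a molecular tag that counts captured transcripts. The median number of heavy-chain UMIs was 5, 6, 9 and 8 in WT replicates 1 to 4 and 7, 8, 9.5 and 7 in KO replicates 1 to 4. In paired cells of the same libraries the medians were 22, 22, 23 and 25 in WT and 41, 39, 41 and 37 in KO. The 2 classes of barcode did not overlap: each heavy-only median lay below each paired median. The mean within-library difference was -23.8 UMIs (lower in 8 of 8 libraries, exact sign-flip permutation test, two-sided, p = 0.00781, the smallest that 8 libraries allow). Barcodes with fewer than 5 heavy UMIs were 37.2% ± 7.04 of heavy-only barcodes in WT and 33.6% ± 3.91 in KO (SD, n = 4), against 6.89% and 3.61% of paired cells (higher in 8 of 8, exact sign-flip p = 0.00781).

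The genotypes differed in how far the classes lay apart. Paired cells of KO held more heavy-chain UMIs than those of WT, 39.5 ± 1.91 against 23 ± 1.41, whereas heavy-only medians averaged 7.88 ± 1.18 in KO and 7.00 ± 1.83 in WT (SD, n = 4 each). The heavy-only difference between genotypes was 0.875 UMIs (exact permutation p = 0.543). The gap to paired cells was 15.6 UMIs wider in KO (exact permutation test of the difference of differences, p = 0.0286, adjusted over its family 0.114). Each UMI of a heavy-only barcode was supported by a median of 70.7 ± 5.66 reads in WT and 54.8 ± 3.61 in KO, higher than in paired cells by 3.96 reads in 8 of 8 libraries (exact sign-flip p = 0.00781).

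A long tail was present too. Of the heavy-only barcodes 30 WT and 32 KO had 41 to 80 heavy UMIs, and 19 of each genotype had 81 or more. A heavy-chain count above the 99th percentile of paired cells of the same library, the level set for plasma-cell-like barcodes, was reached by 2 of 1667 heavy-only barcodes, both WT. That level is passed by about the top percent of paired cells by its definition, so their share there is no measurement.

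**Figure D2:**
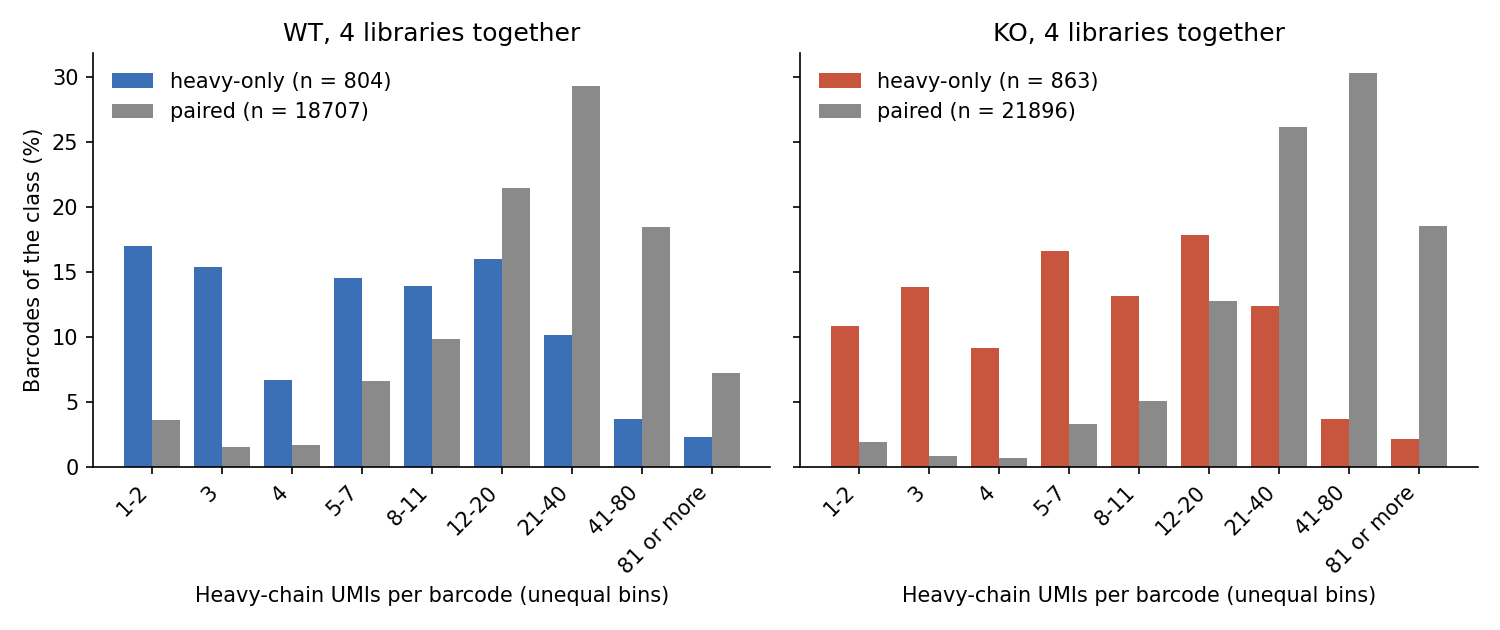
Percent of barcodes (y axis) in bins of heavy-chain UMIs per barcode (x axis, bins of unequal width), for heavy-only barcodes (coloured) and paired cells (grey), WT on the left and KO on the right, 4 libraries pooled. Heavy-only barcodes fill the low bins, with 17.04% of WT and 10.9% of KO at 1 or 2 UMIs against 3.61% and 1.99% of paired cells.

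Most heavy-only barcodes were IgM. Of the 1663 with a constant gene, 1511 were IGHM, the gene of the first antibody class a B cell makes, 25 were IGHD and 127 had switched class. The switched ones were 72 IGHG1, 35 IGHG2B, 18 IGHG3 and 2 IGHG2C, and 0 were IGHA or IGHE, which allows a share of up to 0.180% for each. In 4 barcodes no constant gene was listed. All of these genes lie on chromosome 12 (mm10), IGHM at 113418826 to 113422730 and IGHD beside it at 113407535 to 113416324.

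IGHM was slightly less common than in paired cells. It made up 89.2%, 89.3%, 87.2% and 91.9% of heavy-only barcodes in WT replicates 1 to 4 and 90.7%, 91.9%, 93.4% and 93.4% in KO, against 91.5% to 93.7% of paired cells. The difference was -1.69 percentage points (lower in 7 of 8 libraries, exact sign-flip p = 0.0391, adjusted over the constant-gene family 0.215). It did not hold within a window of 5 to 20 heavy UMIs, where the pooled median was 9.5 in heavy-only barcodes and 13 in paired cells. There IGHM was 4.89 points more common in heavy-only barcodes than in paired cells (exact sign-flip p = 0.0156). That window lies below the pooled median of IGHM paired cells, 32 heavy UMIs, but not below that of switched paired cells, 17.

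IGHD, the naive B-cell class, was found more often. It was the constant gene of 3.15%, 1.65%, 0.80% and 2.70% of heavy-only barcodes in WT replicates 1 to 4, and of 0.403%, 0.426%, 2.41% and 0.472% in KO. Paired cells held 0.431% to 0.768% in WT and 0.0199% to 0.217% in KO. Each library had the higher value in its heavy-only barcodes, by 1.11 points on average (8 of 8, exact sign-flip p = 0.00781, adjusted 0.0859), and KO replicate 3 stood above the other KO libraries. In WT replicate 3 and KO replicates 1, 2 and 4 the share was below that of 3 barcodes, which is 2.40%, 1.20%, 1.28% and 1.41%. The 25 IGHD barcodes had a median of 3 heavy UMIs, and the difference between the classes was 0.508 points (exact sign-flip p = 0.0781) once barcodes under 5 UMIs were left out. Below 5 UMIs IGHD was 2.82% ± 3.12 of heavy-only barcodes and 2.05% ± 0.944 of paired cells (SD, n = 8). At 5 or more it was 0.809% ± 0.788 and 0.301% ± 0.264. Of the 25, 16 had no match among paired cells, 13 of the 18 in WT and 3 of the 7 in KO. Of all 1667 heavy-only barcodes, 416 had no match. The matched share of IGHD paired cells was not measured.

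Class-switched barcodes were 8.54% ± 2.76 in WT and 6.72% ± 2.01 in KO (SD, n = 4), against 7.44% and 6.67% of paired cells (difference 0.572 points, exact sign-flip p = 0.531). At 5 to 20 heavy UMIs the sign turned, to -5.23 points (exact sign-flip p = 0.0156). The pooled median was 17 heavy UMIs in switched and 32 in IGHM paired cells, but 6 and 7 in heavy-only barcodes. The window thus holds the median of switched paired cells and lies below that of IGHM paired cells. IGHG1 alone differed by -0.00216 points over all depths and by -4.51 in that window (exact sign-flip p = 0.00781). Within the switched barcodes the genotypes separated: IGHG1 made up 45.5%, 22.7%, 46.7% and 37.5% of them in WT and 77.3%, 72.2%, 100% and 76.9% in KO. The lowest KO library lay above the highest WT library, a difference of 43.5 points (exact permutation p = 0.0286, adjusted 0.157; each library held few switched barcodes, 67 WT and 60 KO in all). Paired cells had the same order, 45.3% in WT and 78.9% in KO. IGHG3 was 1.95% ± 0.337 of WT and 0.325% ± 0.219 of KO heavy-only barcodes, again without overlap (difference -1.63 points, exact permutation p = 0.0286, adjusted 0.157). These shares rest on 15 WT and 3 KO barcodes. Each KO library lay below the share of 3 barcodes, which is 1.20% to 1.81% there.

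**Figure D3:**
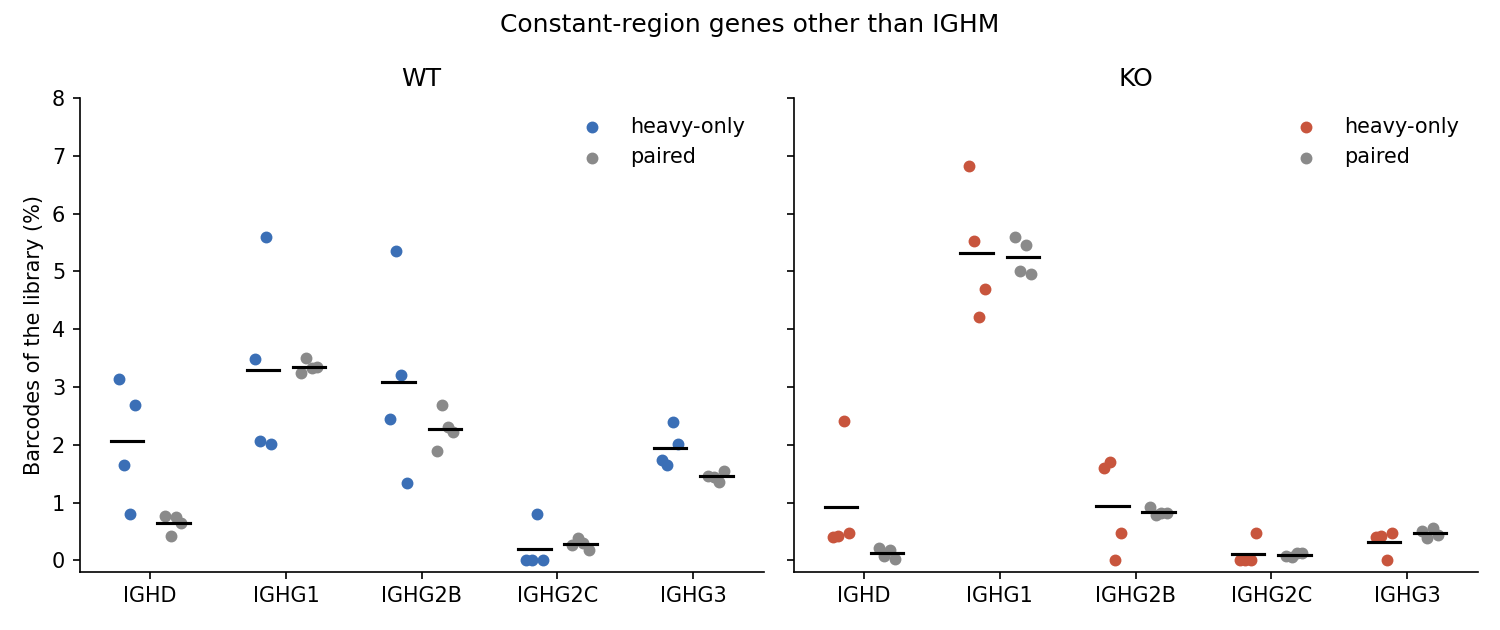
Percent of the barcodes of each library (y axis) that carry each constant gene other than IGHM (x axis), for heavy-only barcodes (coloured) and paired cells (grey), each point a library and each bar the mean of 4. IGHD lies higher in heavy-only barcodes of each library, and IGHG3 separates WT from KO in both classes, with 15 WT and 3 KO heavy-only barcodes.

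V-gene use was broad and close to that of paired cells. Heavy-only barcodes used 88 of the 97 IGHV genes in the files, and the most common were IGHV9-3 (117 barcodes), IGHV1-81 (108), IGHV8-8 (107), IGHV1-9 (93), IGHV2-2 (65) and IGHV2-5 (63). IGHV1-55, IGHV1-64, IGHV1-53 and IGHV8-12 followed with 57, 56, 53 and 44 barcodes. Of 59 genes that could be tested between heavy-only and paired barcodes, 4 were called at an adjusted p under 0.05 (6.78%), 3 higher and 1 lower, by edgeR's quasi-likelihood test.

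IGHV2-2 (chromosome 12, 113588267 to 113588700, mm10) stood first among the 4. It was used by 4.53%, 3.70%, 3.20% and 1.34% of heavy-only barcodes in WT replicates 1 to 4 and by 4.82%, 4.26%, 3.61% and 4.23% in KO. In paired cells its share lay between 1.90% and 2.54%, so 7 of 8 libraries were higher and WT replicate 4 was lower. The log2 fold change was 0.81 ± 0.22 (SE, edgeR adjusted p = 0.0207). It fell to 0.50 (adjusted p = 0.275) with each clone counted once, and to 0.73 (adjusted p = 0.116) without WT replicate 1.

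IGHV1-19 (chromosome 12, 114708648 to 114708941) was used by 2.72% of heavy-only and 1.55% of paired barcodes, averaged over the 8 libraries (log2 fold change 0.83 ± 0.26 SE, edgeR adjusted p = 0.0401). IGHV9-3 (chromosome 12, 114140692 to 114141122) was used by 7.30% and 4.82% (0.55 ± 0.18 SE, edgeR adjusted p = 0.0429), with a range over libraries from 3.21% in KO replicate 1 to 12% in WT replicate 3. IGHV1-4 (chromosome 12, 114487136 to 114487429) was the gene called lower, with 8 heavy-only barcodes, 0.504% against 1.43% (-1.53 ± 0.48 SE, edgeR adjusted p = 0.0401). These calls were near the threshold: none of the 4 was called with TMM factors, with no filter, at 5 or more UMIs, without WT replicate 1 or without KO replicate 4, and DESeq2 called IGHV2-2 alone. The 4 fold changes kept their signs under each alternative run.

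**Figure D4:**
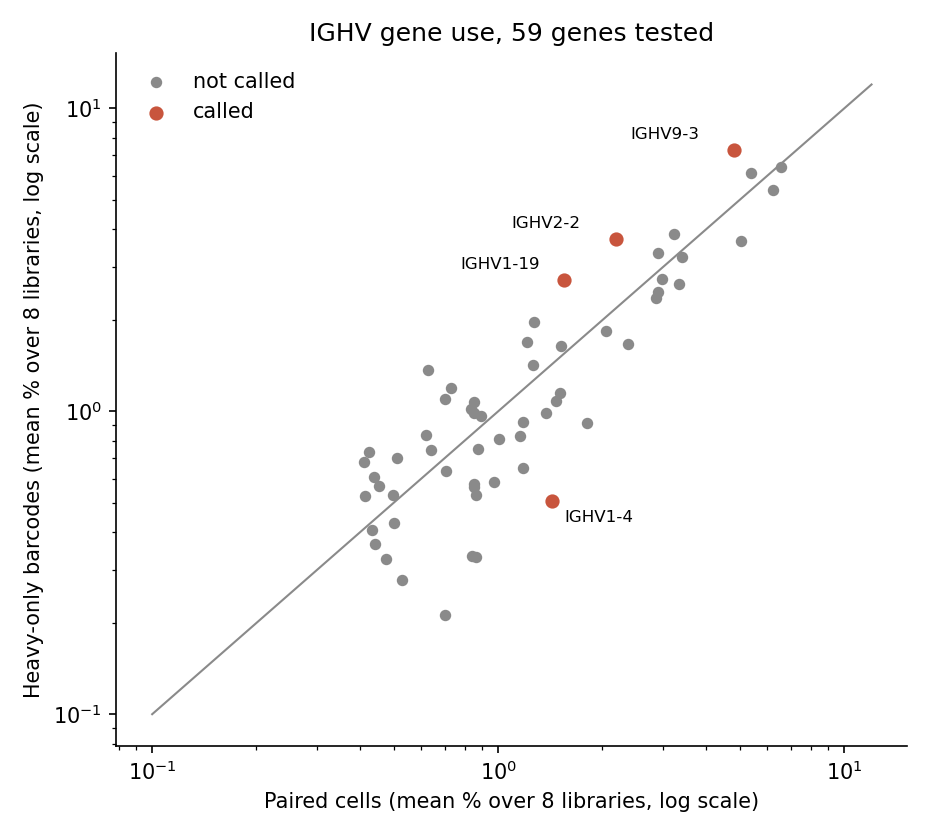
Mean share of each of the 59 tested IGHV genes among heavy-only barcodes (y axis, log scale) against its share among paired cells (x axis, log scale), over 8 libraries, with the line of equality. The 4 called genes are named, with IGHV2-2, IGHV1-19 and IGHV9-3 above the line and IGHV1-4 below it.

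By V family, IGHV2 was 2.73 points higher than in paired cells (higher in 7 of 8 libraries, exact sign-flip p = 0.0391, adjusted over the family tests 0.195). IGHV9 was 2.61 points higher (7 of 8, exact sign-flip p = 0.0391, adjusted 0.195). IGHV1, the largest family of the mouse locus, was 4.43 points lower (7 of 8, exact sign-flip p = 0.0234, adjusted 0.195), and IGHV6 was 0.525 points lower in 8 of 8 (exact sign-flip p = 0.00781, adjusted 0.156). No family passed after adjustment. At 5 or more heavy UMIs the differences were 0.298 for IGHV2 (exact sign-flip p = 0.797), 2.06 for IGHV9 (0.117), -2.19 for IGHV1 (0.281) and -0.366 for IGHV6 (0.148). Leaving out 1 library ended the unadjusted call for IGHV2 and for IGHV9 in 5 of 8 cases each. The V genes typical of B-1 cells, an innate-like lineage, were rare in both classes: 2 heavy-only barcodes used IGHV11-2, 6 used IGHV12-3 and 3 used IGHV7-1. Averaged over the 8 libraries, IGHV12-3 was 0.331% of heavy-only and 0.865% of paired barcodes. IGHV11-2 was 0.127% and 0.0913%, and IGHV7-1 0.171% and 0.0944%, so the 3 genes did not share a direction. IGHV12-3 was found in 4 barcodes of WT replicate 2 and in 1 barcode each of KO replicates 1 and 3, with 0 in the other 5 libraries.

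Between genotypes, 4 V genes had enough heavy-only barcodes to be tested and 1 was called (25%). IGHV1-9 (chromosome 12, 114583569 to 114583862) made up 8.71%, 8.64%, 6.40% and 4.70% of heavy-only barcodes in WT replicates 1 to 4 and 3.61%, 4.26%, 2.41% and 4.23% in KO. The groups did not overlap, and paired cells had the same order, 7.70% ± 0.36 in WT and 4.76% ± 0.49 in KO (SD, n = 4). The fit gave a lower level in KO (log2 fold change, KO over WT, -0.998 ± 0.29 SE, edgeR adjusted p = 0.0078). The call was lost with DESeq2 (adjusted p = 0.668), with no filter (0.119), and without WT replicate 1 (0.0766), WT replicate 2 (0.127) or KO replicate 2 (0.0537). IGHV8-8 was 14.1%, 6.38%, 5.42% and 6.10% in KO and 3.20% to 4.94% in WT (0.91 ± 0.38 SE, edgeR adjusted p = 0.0504), with KO replicate 1 far above the rest. Without that library the log2 fold change was 0.46 (adjusted p = 0.336), whereas without KO replicate 3 it was 1.04 (adjusted p = 0.0346) and without KO replicate 4 1.02 (adjusted p = 0.0394). Paired cells held 4.18% ± 0.311 in WT and 6.57% ± 0.129 in KO (SD, n = 4).

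Among J genes, which supply the last part of the CDR3, IGHJ2 was the most common with 504 barcodes, followed by IGHJ4 (448), IGHJ3 (382) and IGHJ1 (333). IGHJ1 was used by 15.0% to 21.6% of heavy-only barcodes in WT libraries and 20.1% or more in KO libraries, on average 3.14 points above paired cells (higher in 7 of 8, exact sign-flip p = 0.0156, adjusted 0.0625). IGHJ3 differed by -3.82 points (lower in 7 of 8, exact sign-flip p = 0.0312, adjusted 0.0625). Both leave the J genes short of the adjusted threshold. The mean CDR3 length was 14.3 ± 0.111 residues in WT and 14.4 ± 0.106 in KO (SD, n = 4), -0.0441 residues from paired cells (exact sign-flip p = 0.242). Mean net charge of the CDR3 differed by -0.0155 (exact sign-flip p = 0.641).

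Somatic mutation was low in heavy-only barcodes and lower in KO. A mutation is a base of the V gene, framework 1 to framework 3, that differs from the most common sequence of that gene over clones, a value that 1641 of the 1667 barcodes had. The mean was 0.410%, 0.510%, 0.656% and 0.384% of bases in WT replicates 1 to 4 and 0.283%, 0.291%, 0.211% and 0.216% in KO, without overlap. The difference was -0.240 points (exact permutation p = 0.0286, adjusted 0.0476). At 5 to 20 heavy UMIs it was -0.138 (exact permutation p = 0.171). Paired cells differed in the same direction, 0.434% ± 0.0132 in WT and 0.225% ± 0.0165 in KO (SD, n = 4). The genotype difference in heavy-only barcodes differed from that in paired cells by -0.0315 points (exact permutation test of the difference of differences, p = 0.8286). Without any mutation were 65.2%, 58.5%, 56.6% and 64.4% of WT and 72.9%, 75.3%, 79.1% and 77.5% of KO barcodes, a difference of 15.04 points (exact permutation p = 0.0286, adjusted 0.0476). It was 10.8 at 5 or more heavy UMIs (exact permutation p = 0.0857) and 8.18 at 5 to 20 (0.143). Unmutated paired cells were 65.3% in WT and 77.9% in KO. IGHM barcodes alone gave 0.407% ± 0.0535 in WT and 0.202% ± 0.0248 in KO (SD, n = 4, exact permutation p = 0.0286, adjusted 0.0476), and a difference of -0.100 at 5 to 20 UMIs (exact permutation p = 0.114).

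Switched heavy-only barcodes had mutations at 1.35% ± 0.485 of bases in WT and 0.890% ± 0.216 in KO (SD, n = 4), set beside the IGHM values without a test. The difference between genotypes in switched barcodes gave an exact permutation p of 0.143. Compared with paired cells, heavy-only barcodes had 0.0404 points more mutation (higher in 5 of 8 libraries, exact sign-flip p = 0.234), and the sign turned with each clone counted once (-0.0404) and at 5 to 20 UMIs (-0.0787). Mutations per mutated barcode averaged 3.56 ± 0.525 in WT and 2.99 ± 0.270 in KO, and the largest number in a single barcode was 31, in KO.

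Most heavy-only barcodes matched a paired clone of their own genotype. A match required the same IGHV gene, IGHJ gene and CDR3 length and a CDR3 identity of at least 0.85 to a paired cell, called a sister cell here. Of 1667 barcodes 1251 matched, 594 WT and 657 KO, 1068 had an identical CDR3 in a paired cell, and 930 were identical from framework 1 through CDR3. The matched share was 74.2%, 78.2%, 68.0% and 71.1% in WT replicates 1 to 4 and 80.7%, 71.5%, 80.7% and 72.3% in KO. Paired cells, matched to the other paired cells in the same way, gave 76.6% to 77.7% in WT and 73.1% to 74.7% in KO. The difference between classes was -0.993 points (higher in 3 of 8 libraries, exact sign-flip p = 0.648). With each clone counted once it was 16.2 points (exact sign-flip p = 0.00781), and the sign turned in 5 alternatives in all, so no direction is given to it. Counted that way, a paired clone of a single cell, which cannot match another paired cell, weighs as much as a large clone. The 16.2 points are thus not a like-for-like comparison of the classes. The difference between genotypes was 3.42 points (exact permutation p = 0.314). Matched barcodes had a median of 5 to 9 sister cells in WT libraries and 5 to 6 in KO libraries, 1.94 below paired cells on average (exact sign-flip p = 0.0312, adjusted 0.075). As a background, 425 of the 1667 heavy-only barcodes matched a paired cell of the other genotype by the same rule, but only 32 did so with an identical CDR3. Of the 40603 paired cells, 12029 and 540 did. The 0.85 rule thus also joins heavy chains from different animals. Within their own genotype, 24943 paired cells had an identical CDR3 in another paired cell, and 21323 were identical from framework 1 through CDR3.

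The matched share differed with the number of heavy-chain UMIs. Heavy-only barcodes were split at 5 UMIs after the data had been seen. Below 5 UMIs the matched share was 85.04%, 87.3%, 86.5% and 89.8% in WT replicates 1 to 4 and 92.6%, 79.2%, 90.0% and 86.8% in KO. At 5 or more it was 65.6%, 71.6%, 60.2% and 62.0% in WT and 73.4%, 68.1%, 76.7% and 64.2% in KO. The lowest value below 5 UMIs lay above the highest at 5 or more. The mean difference was 19.4 points (8 of 8 libraries, exact sign-flip p = 0.00781, adjusted 0.0156). Paired cells had 72.5% ± 3.72 below 5 UMIs and 75.7% ± 1.91 at 5 or more (SD, n = 8). With 5 or more UMIs in both classes, heavy-only barcodes matched less often than paired cells, by 8.00 points (exact sign-flip p = 0.0312).

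The identity went beyond the clone. Below 5 UMIs, 64.0% ± 4.59 of heavy-only barcodes had a heavy chain identical from framework 1 through CDR3 to that of a paired cell in their own library, against 38.7% ± 9.21 at 5 or more (SD, n = 8, difference 25.3 points, 8 of 8, exact sign-flip p = 0.00781, adjusted 0.0156). For paired cells the values were 34.8% ± 5.496 and 40.95% ± 1.87. Over all depths the share was 44.9% ± 9.60 in WT and 49.99% ± 3.85 in KO (SD, n = 4), 6.79 points above paired cells (7 of 8, exact sign-flip p = 0.0625). The number whose barcode sequence differed by 1 base from such a paired cell of their library was 0 among heavy-only barcodes. It was 0 among paired cells too, so this count does not tell the classes apart.

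Sister cells lay in the barcode's own library more often than for paired cells. If sisters were spread evenly over the 4 libraries of a genotype, about the share held by each library would be found there, and for paired cells the mean share of sisters in the own library was 23.2% to 27.3%. For heavy-only barcodes it was 36.1%, 37.6%, 27.0% and 33.2% in WT replicates 1 to 4 and 34.9%, 34.1%, 34.5% and 30.3% in KO. Each library was higher than its own paired cells, by 7.92 points on average (8 of 8, exact sign-flip p = 0.00781, adjusted 0.0312). Below 5 UMIs the share was 39.3% ± 4.93 and at 5 or more 29.4% ± 2.97 (SD, n = 8, difference 9.87, 8 of 8, exact sign-flip p = 0.00781). Paired cells below 5 UMIs also had more sisters in their own library, 33.1% ± 6.2 against 25.1% ± 1.21 at 5 or more. Among barcodes with 5 to 20 UMIs the excess of heavy-only barcodes over paired cells was 3.40 points (exact sign-flip p = 0.102).

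The clearest case is a barcode with a single sister among all 4 libraries. There were 214 such heavy-only barcodes, and in 111 (51.9%) the sister lay in the same library, 49 of 94 in WT and 62 of 120 in KO. Of 4281 paired cells with a single sister, 1222 (28.5%) had it in the same library. By library the heavy-only share ran from 35.7% in WT replicate 3 to 61.9% in WT replicate 4, above the paired share in 8 of 8, by 22.5 points on average (exact sign-flip p = 0.00781, adjusted 0.0156). Below 5 UMIs the heavy-only share was 64 of 95 (67.4%), and at 5 or more 47 of 119 (39.5%). Paired cells moved the same way, with 159 of 319 (49.8%) below 5 UMIs and 1063 of 3962 (26.8%) at 5 or more. Whether these heavy chains belonged to the cell of the barcode or were RNA from other cells of the same loading was not tested.

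**Figure D5:**
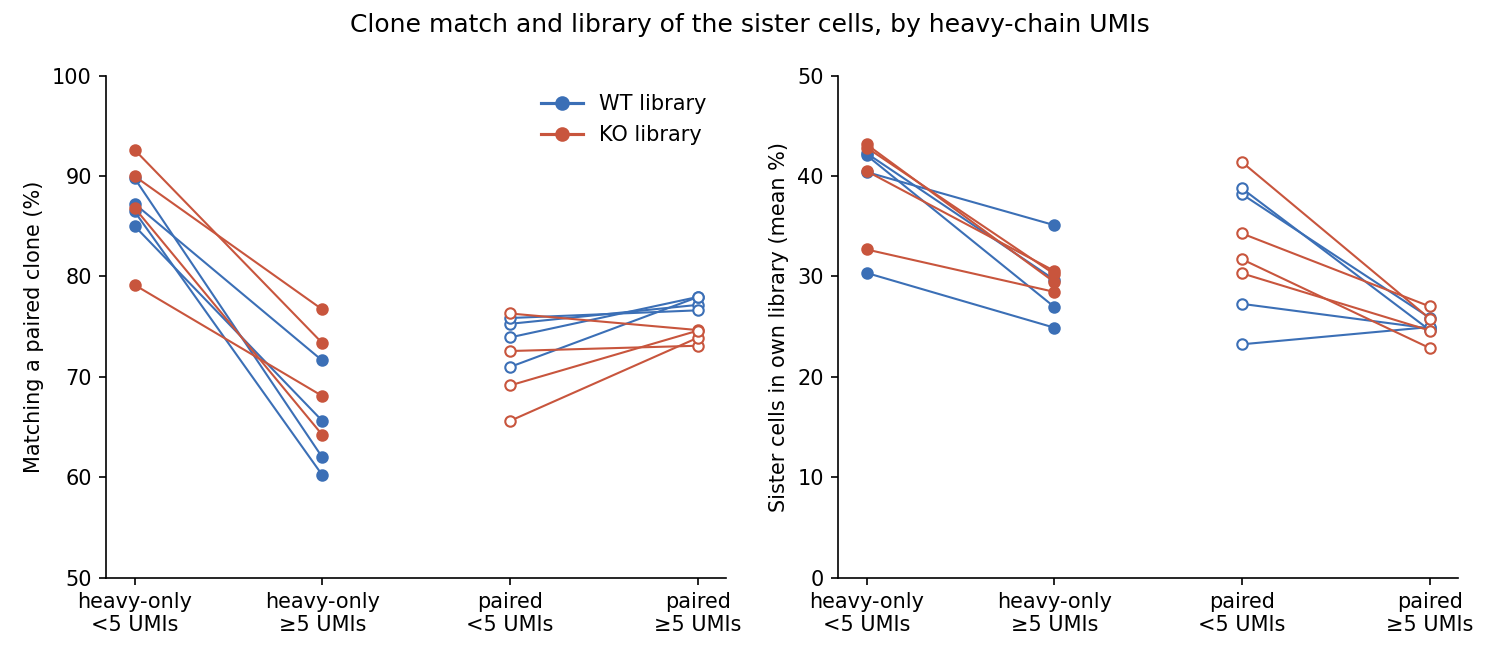
Left, percent of barcodes whose heavy chain matches a paired clone of the same genotype (y axis from 50 to 100); right, mean percent of sister cells that lie in the barcode's own library; each line joins the values of a library below 5 and at 5 or more heavy-chain UMIs, for heavy-only barcodes (filled) and paired cells (open). Both measures drop with more UMIs in heavy-only barcodes of each library.

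The 416 heavy-only barcodes without a match had more heavy UMIs than the matched ones, with a pooled median of 11 against 6, and 79 of them (19.0%) were below 5 UMIs against 529 of 1251 (42.3%). They used 77 IGHV genes. Of these barcodes 371 were IGHM, 16 IGHD and 29 switched. Without mutation were 75.7% of unmatched and 56.7% of matched barcodes in WT, but 65.7% and 79.1% in KO, so the order of matched and unmatched differed between the pools, a difference that was not tested. Heavy-only barcodes fell into 1306 clones, 122 of them with heavy-only members in 2 or more libraries. These clones were built from all barcodes of a genotype with 1 heavy contig, paired cells included. Clones with no paired cell numbered 407 and held 414 barcodes, 401 of them alone in their clone. The largest, WT IGHV1-78 with IGHJ4, had 3 barcodes, of 3, 4 and 6 heavy UMIs, 2 in replicate 1 and 1 in replicate 2, with the same CDR3 in each. A further 5 such clones had 2 barcodes each. The 4 of them named by the rule, which ends within that tie, were KO and used IGHV1-26 with IGHJ2, IGHV1-26 with IGHJ1, IGHV9-2 with IGHJ2 and IGHV9-3 with IGHJ2.

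Matched barcodes point to a light chain that was not listed for them. The most common light V gene of the sister cells is that of the cell itself in 87.3% of matched paired cells. That figure cannot be measured in heavy-only barcodes, where the share of sisters with the most common light gene averaged 90.6% in WT and 89.2% in KO, against 92.5% and 91.6% for paired cells (difference -2.16 points, exact sign-flip p = 0.0938). The sisters of heavy-only barcodes had fewer light-chain UMIs: their median was 58, 57.8, 60 and 53.2 in WT replicates 1 to 4 and 66, 60, 66.8 and 71 in KO. For paired cells the same measure was 68 to 70 in WT and 78 to 79 in KO, above each heavy-only value of the same genotype. The mean difference was -12.3 UMIs (lower in 8 of 8, exact sign-flip p = 0.00781, adjusted 0.0312). Lambda sisters, a minority in mice, were those of 5.48% ± 1.99 of matched WT and 1.62% ± 0.587 of matched KO barcodes (SD, n = 4, exact permutation p = 0.0286, adjusted 0.114), against 5.02% and 2.51% of paired cells. The lambda difference of -3.86 points was -3.16 at 5 or more heavy UMIs (exact permutation p = 0.229), and p was 0.0571 with any 1 of the KO libraries left out.

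By light V gene, 52 genes could be tested between matched heavy-only and matched paired barcodes, and edgeR called 0 (0%), with 5 at an unadjusted p under 0.05 and DESeq2 calling 0. Those 5 were IGKV2-109 (1.78% against 0.979%, log2 fold change 0.90), IGKV4-57-1 (1.48% against 0.780%, 1.03), IGKV1-135 (1.97% against 3.48%, -0.84), IGKV3-2 (0.408% against 0.989%, -1.27) and IGKV6-23 (4.39% against 2.53%, 0.63). Light genes with fewer UMIs in paired cells tended to have the larger fold changes in heavy-only barcodes. Over the 52 genes, whose median light UMIs ran from 30 to 126, Spearman's rho was -0.56, given as a description since genes share libraries and clones. IGLV1, the main lambda gene of the mouse, was the sister gene of 2.55% of heavy-only and 2.57% of paired barcodes.

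The largest clone among heavy-only barcodes was the KO clone of IGHV2-2 and IGHJ4. It had 14 heavy-only barcodes, 5, 4, 0 and 5 in replicates 1 to 4, with 2 to 31 heavy UMIs, beside 101 paired cells spread 25, 23, 28 and 25. Of the 14, 7 were IGHM and 7 switched, and of the paired cells 61 were IGHM and 39 switched. The sisters carried IGKV6-23 in 81 of 101 cells. The WT clone of the same genes had 7 heavy-only barcodes, 4 in replicate 1 and 3 in replicate 3, and 74 paired cells, all with IGKV6-23.

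This heavy chain was found in both pools, as the sequences printed above show. The exact 33 bases were carried by 3 WT and 3 KO heavy-only barcodes and by 6 WT and 15 KO paired cells. Counting other codons for the same residues, there were 6 WT heavy-only barcodes in 3 nucleotide forms and 7 KO ones in 4 forms. Of the paired cells with those residues, 53 of 53 in WT and 35 of 37 in KO used IGKV6-23. Of the 32 heavy-only barcodes with a CDR3 identical to that of a paired cell of the other genotype, 15 used IGHV2-2, and of the 540 paired cells with such a match 125 did. That identical match was more frequent than in paired cells in 8 of 8 libraries, by 0.615 points (exact sign-flip p = 0.00781, adjusted 0.0312).

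The WT clone of IGHV2-2 and IGHJ3 was confined to 1 library in its heavy-only barcodes. All 7 lay in replicate 1, with 2 to 24 heavy UMIs, no mutation and the CDR3 printed above, whereas its 49 paired cells, all with that CDR3, lay 9, 12, 11 and 17 over the replicates. Each of the 49 carried IGKV1-110. The KO clone of IGHV8-8 and IGHJ2 had 9 heavy-only barcodes, 6 of them in replicate 1, and 136 paired cells spread 29, 45, 28 and 34. The KO clone of IGHV8-8 and IGHJ1 had 9, again with 5 in replicate 1, and 72 paired cells spread 14, 24, 20 and 14. In both, the heavy-only barcodes had a median of 9 and 11 UMIs and the paired cells one of 56.5 and 59. Their 9 heavy-only barcodes held 8 and 7 different CDR3s, and the most common light gene was IGKV9-120 in 40 of 136 cells (29.4%) and IGKV3-12 in 25 of 72 (34.7%). They are groups under the 0.85 identity rule, and whether each is 1 lineage was not tested.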

How the data were processed

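The deposited tables list assembled receptor contigs per barcode, with read and UMI counts that the authors obtained with Cell Ranger (version not given in the sources used here; R 4.3.1 and mm10 are also named in the submitters' processing notes). Members and gene lists were chosen with earlier results of these data known. Barcodes were classed by their contigs (no doublet caller was run, and barcodes with several heavy contigs, 2.45% to 4.02% of a library, were left out) and compared per library: KO against WT by exact permutation of 4 against 4 libraries (70 assignments), heavy-only against paired barcodes by exact sign flips over 8 libraries (256), both two-sided; a difference was called below 0.05, and Benjamini-Hochberg values were taken within each family of measures. For V genes, barcodes per gene entered the quasi-likelihood test of edgeR 4.0.16 (filterByExpr, scaled to the barcodes of a library, DESeq2 1.42.0 as an alternative) in R 4.3.3, after a check on simulated data. The V germline was the most common framework 1 to 3 sequence over paired clones, for 76 of 97 IGHV genes with at least 20 clones. Gene positions are from RefSeq GRCm38.p6, where 109 of 109 names matched. Named genes were all constant and J genes, the 10 most used IGHV genes, called IGHV genes, light V genes by smallest p, the V families, B-1 and lambda genes, and the 5 largest clones with and without a paired match.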

Additional observations from a re-analysis of the deposited data

Results flagged for a closer look

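The gap in median heavy-chain UMIs between heavy-only and paired barcodes differed between genotypes, by -15.6 UMIs in KO relative to WT (exact permutation p = 0.0286). The same test gave -0.644 points for IGHG3 (0.325% against 0.472% of paired cells in KO, 1.95% against 1.46% in WT, exact permutation p = 0.0286, adjusted 0.314). It gave 2.62 for the median number of sister cells (exact permutation p = 0.0286, adjusted 0.343) and -0.937 points for IGHV12-3 (exact permutation p = 0.0286, adjusted 0.286), whose paired share was 1.25% in KO and 0.477% in WT. Of 31 such differences tested, 4 passed without adjustment and 0 with it.

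Single libraries stood far from the other 3 of their genotype in 6 of 64 groups. The rule flags about 1 in 20 groups of independent, normally distributed values. Here measures overlap, and the flagged IGHD and IGHG3 shares of KO rest on 7 and 3 barcodes and the IGHV12-3 share of WT on 4. The lambda-sister share of KO rests on 11 barcodes and the WT share with a CDR3 identical to the other genotype on 18. That rate is therefore no yardstick for the 6. KO replicate 3 had the highest IGHD share (2.41%), the lowest IGHG3 share (0%, of 166 barcodes) and the lowest share of lambda sisters (0.746%). WT replicate 3 had the highest share of CDR3s identical to the other genotype (3.20%). KO replicate 1 had the highest IGHV8 family share (16.1%). WT replicate 2 held all WT barcodes with IGHV12-3 (1.65%).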

How the results depend on the processing

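Of 908 recomputed values over 68 results, 688 kept their direction and side of the threshold, 128 lost the call, 22 gained one, 39 changed sign and 31 counts moved. The cause of these changes was not tested. The lower heavy UMIs, the lower light UMIs of sister cells and the depth splits of the matched and own-library shares kept direction and call in each alternative run. All values below are heavy-only minus paired unless KO minus WT is named. With 1 library left out in turn, IGHM ran from -2.001 to -1.25 points, class-switched from -0.0136 to 1.05, IGHG1 from -0.326 to 0.205, IGHJ3 from -4.68 to -2.99, CDR3 net charge from -0.0383 to 0.00637, the matched share from -2.23 to 0.253 and lambda sisters from -0.553 to 0.0885. KO minus WT then ran from -0.485 to 0.263 for the heavy-only share and from -0.275 to -0.185 for mutation. Counts of IGHV genes called higher ran from 0 to 2 and lower from 0 to 1 against paired cells, and between genotypes from 0 to 1 and 0 to 2.

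At 5 or more heavy UMIs, the heavy-only share was 0.0785 (KO minus WT), IGHM -0.957, IGHD 0.508, the matched share -8.00 and the identical own-library share -2.22. At 5 to 20 heavy UMIs, IGHM was 4.89, class-switched -5.23, IGHG1 -4.51, IGHD 0.340, IGHG2B -0.585, IGHG3 -0.0332, CDR3 length 0.152, mutation -0.0787, mutation in IGHM -0.0453, unmutated 5.09, own-library sisters 3.40, number of sisters 0.938 and IGHV12-3 0.163. KO minus WT there was 39.6 for IGHG1 among switched and -0.138 for mutation. With each clone counted once, IGHM was 0.485, class-switched -1.34, IGHG1 -1.20, IGHD 0.857, IGHG2B -0.201, IGHJ3 -2.47, mutation -0.0404, mutation in IGHM -0.0395, unmutated 3.64, lambda sisters 0.104, IGHV12-3 0.0466 and the matched share 16.2.

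Without barcodes shared between libraries IGHG1 was 5.96e-05. Against all barcodes with 1 heavy and any light chain IGHG1 was 0.0679 and the matched share 0.213. The matched share was 0.0827 at an identity of 0.95, 1.59 for identical CDR3s and -5.73 for matches in the 3 other libraries only. Leaving out WT replicates 1 and 2, an alternative chosen after seeing the data, gave 0.779 for the heavy-only share (KO minus WT). Other alternatives chosen after seeing the data were the share among barcodes with 1 heavy chain, the split at 5 UMIs and leaving out the WT clone of IGHV2-2 and IGHJ3.

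Against paired cells, IGHV genes called higher and lower were 0 and 0 with TMM factors, no filter, or 5 or more UMIs, 1 and 0 with DESeq2, and 1 and 1 with each clone once. Between genotypes they were 1 and 0 with no filter, and 0 and 0 with DESeq2 or 5 or more UMIs. TMM factors called 1 light V gene lower.

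In V-gene shares, same-numbered WT and KO libraries did not deviate together: correlations ran from -0.50 to 0.04 in heavy-only barcodes and from -0.34 to 0.07 in paired cells. Other measures had the same order in both genotypes. The heavy-only share was highest in replicate 1 (WT 4.34%, KO 3.41%) and lowest in replicate 3 (2.10%, 2.35%). Median reads per UMI of heavy-only barcodes were lowest in replicate 1 (63.2, 49.9) and highest in replicate 4 (76.4, 58.5). Whether same-numbered libraries shared a processing step was not tested. With the replicate number as a block the values stayed the same, 43.5 for IGHG1 among switched and -0.240 for mutation, and p became 0.125, the smallest that 4 pairs allow. Depth limits the rare classes most: 3 counts are 1.05% to 2.40% of the heavy-only barcodes of a library.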
